A study of Mus musculus with 12 samples.

Results

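The cytochrome P450 family 4 genes of mouse liver encode microsomal enzymes that hydroxylate the far, omega end of fatty acids and related lipids. The genes described here are the 8 rows of the deposited count table whose symbols are Cyp4a10, Cyp4a14, Cyp4a31, Cyp4a32, Cyp4f13, Cyp4f14, Cyp4f15 and Cyp4v3, out of 56441 genes in the table. They were chosen by symbol, which the table writes in capitals (CYP4A10, CYP4A14, CYP4A31, CYP4A32, CYP4F13, CYP4F14, CYP4F15 and CYP4V3). All 8 had counts in all 12 libraries, and all 8 were among the 15228 genes that passed the filter on low counts.

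The study asked about fumarate hydratase (FH), the enzyme that turns fumarate into malate, in fatty liver. Mice were 6 to 8 weeks old when a liver-directed AAV8 vector was given by tail vein, and all groups therefore carried AAV8. The fasted vector group was C57BL/6 mice with AAV8-vector and the fasted FH group was C57BL/6 mice with AAV8-FH; both were fasted for 24 h at 1 month. The ob/ob vector group and the ob/ob FH group were ob/ob mice, which lack leptin, with AAV8-vector or AAV8-FH, kept on a high-fat diet (HFD) for 1 month. Genotype, diet and fasting all differ between the models, so their separate parts cannot be told apart. The promoter in the vector and the species of the FH sequence are not stated. Each group had 3 libraries of poly(A) RNA. Liver is the labelled tissue, and primary hepatocytes are named as well. Whether each library is a mouse of its own is not stated, so each p-value reflects variation among libraries, perhaps technical.

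Omega-hydroxylation is a minor route of fatty acid breakdown that gains weight when fatty acids flood the liver, as in fasting. The hydroxylated acid is oxidised to a dicarboxylic acid by alcohol and aldehyde dehydrogenases and is then shortened in peroxisomes. Cyp4a10 and Cyp4a14 are classical targets of PPARA, the nuclear receptor that senses fatty acids and pairs with RXRA on DNA. The Cyp4f enzymes act on leukotrienes, prostaglandins and long fatty acids, and Cyp4v3 is the mouse counterpart of human CYP4V2, a fatty acid hydroxylase mutated in Bietti crystalline dystrophy.

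Sequence sets how well these rows can be told apart. In the GENCODE M21 annotation (build GRCm38), the Cyp4a genes lie on chromosome 4, the Cyp4f genes on chromosome 17 and Cyp4v3 on chromosome 8. The coding sequences of Cyp4a10 and Cyp4a32 were 97.2% identical, those of Cyp4a10 and Cyp4a31 96.6%, and those of Cyp4a31 and Cyp4a32 96%. Cyp4a14 was 75.6% identical to Cyp4a10 and Cyp4v3 51.7%. The stretch that encodes the loop around the cysteine that holds the haem iron is shown because the 3 close copies are alike there. A read that lies wholly within it cannot by itself be assigned to 1 of them. The stretch covers 99 coding bases, from base 1318 to 1416 of Cyp4a10, and is letter for letter the same in Cyp4a10, Cyp4a31 and Cyp4a32. Capitals mark bases that differ from Cyp4a10, 18 in Cyp4a14, 35 in Cyp4f14 and 42 in Cyp4v3.
Cyp4a10, Cyp4a31 and Cyp4a32: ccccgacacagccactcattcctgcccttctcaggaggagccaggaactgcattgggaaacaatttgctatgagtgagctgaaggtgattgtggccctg
Cyp4a14: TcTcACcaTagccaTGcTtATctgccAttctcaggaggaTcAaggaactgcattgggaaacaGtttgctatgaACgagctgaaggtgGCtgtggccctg
Cyp4f14: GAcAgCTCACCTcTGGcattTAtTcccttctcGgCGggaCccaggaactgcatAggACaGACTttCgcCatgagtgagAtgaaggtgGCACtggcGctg
Cyp4v3: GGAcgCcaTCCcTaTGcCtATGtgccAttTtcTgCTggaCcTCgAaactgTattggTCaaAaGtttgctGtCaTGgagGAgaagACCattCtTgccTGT

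A stretch near the start of the coding sequence is shown because it separates the 3 copies. It runs from coding base 181 to 279 and holds 13 of the 77 positions at which the 3 coding sequences of 1527 bases are not alike. Capitals mark those positions.
Cyp4a10: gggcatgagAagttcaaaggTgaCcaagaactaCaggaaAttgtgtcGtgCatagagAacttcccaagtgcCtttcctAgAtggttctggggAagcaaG
Cyp4a31: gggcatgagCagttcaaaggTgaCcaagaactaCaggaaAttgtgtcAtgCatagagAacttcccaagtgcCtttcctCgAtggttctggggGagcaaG
Cyp4a32: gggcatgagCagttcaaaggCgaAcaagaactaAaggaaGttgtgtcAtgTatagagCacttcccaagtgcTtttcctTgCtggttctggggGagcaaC

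Of all runs of 50 bases in the coding sequence, 40.5% of those of Cyp4a10, 31.6% of those of Cyp4a31 and 46.7% of those of Cyp4a32 also occurred in 1 of the other copies. No such run of Cyp4a14 occurred in these 3 genes. For runs of 100 bases the shares of Cyp4a10, Cyp4a31 and Cyp4a32 were 17.9%, 13.9% and 20.1%. How reads that match several copies were counted is not stated, so values for Cyp4a31 and Cyp4a32 are uncertain, and the 3 copies were also tested as 1 sum. The exons of Cyp4v3 share 313 bases, 8.22% of their length, with Gm45753 on the same strand. RefSeq promoters of build GRCm38.p6 were at hand for 5 members, Cyp4a32, Cyp4f13, Cyp4f14, Cyp4f15 and Cyp4v3. None of these windows held AGGTCA, the binding half-site of many nuclear receptors, on either strand, while 16.3% of 32851 promoters of the same length did. This says only that these letters are absent from these windows.

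Total counts per library ran from 12231828 to 14884323 (fasted vector), 19107050 to 25873379 (fasted FH), 12573267 to 14496559 (ob/ob vector) and 21632289 to 23506015 (ob/ob FH). Levels below are CPM, counts scaled to a common library size, after TMM scaling, which adjusts each library for its RNA make-up. Its factors were 1.12 to 1.37 in vector libraries and 0.721 to 0.907 in FH libraries. Fh1, the mouse FH gene, rose from 319 ± 85.5 to 813 ± 104 CPM (SD, n = 3 and 3) in fasted mice and from 122 ± 17.9 to 679 ± 106 CPM in ob/ob mice. All 9 hepatocyte markers in the table were detected in every group. After TMM scaling 8 of the 9 were called higher with FH in fasted mice and 7 in ob/ob mice, while all 10 sinusoidal endothelial markers, 8 of 10 macrophage markers and 3 of 9 stellate cell markers were lower with FH in fasted mice. With TMM scaling most calls in ob/ob mice had the other direction. There 5 endothelial markers were higher and 1 lower, 7 macrophage markers higher and none lower, and 5 stellate cell markers higher and 1 lower. On library totals the ob/ob counts were 2 higher and 5 lower, 2 and 1, and 1 and 2 for these 3 lists. In fasted mice 10, 9 and 8 were then lower and none was higher. All 5 nuclear or long noncoding RNAs tested fell with FH in both models, and Malat1 went from 499 ± 53.4 to 59.9 ± 18.3 CPM in fasted and from 419 ± 52.9 to 21.4 ± 10.6 CPM in ob/ob mice. On library totals, the summed hepatocyte markers ranged from 63276 to 83409 CPM with vector and 114148 to 127455 CPM with FH in fasted mice, and from 65221 to 77874 CPM and 121122 to 135714 CPM in ob/ob mice. The part of these markers and RNAs in the results below was not tested, and in bulk RNA fewer cells of a type and less RNA per cell cannot be told apart. The ob/ob FH libraries held Xist at 95.6 to 212 CPM on library totals and no count of the Y-linked Ddx3y, while the other 9 libraries held Xist at 0.0523 to 1.17 CPM and Ddx3y at 54.4 to 172 CPM. The labels give no sex, and in the ob/ob comparison FH and this difference cannot be told apart. The same 3 libraries enter the comparison of the models with FH and the test between the 2 FH effects, which carry the difference too. Replicate 2 of the ob/ob vector group stood apart from its group, so the calls and values of the 8 genes that it moved most are given with and without it.

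**Figure D1:**
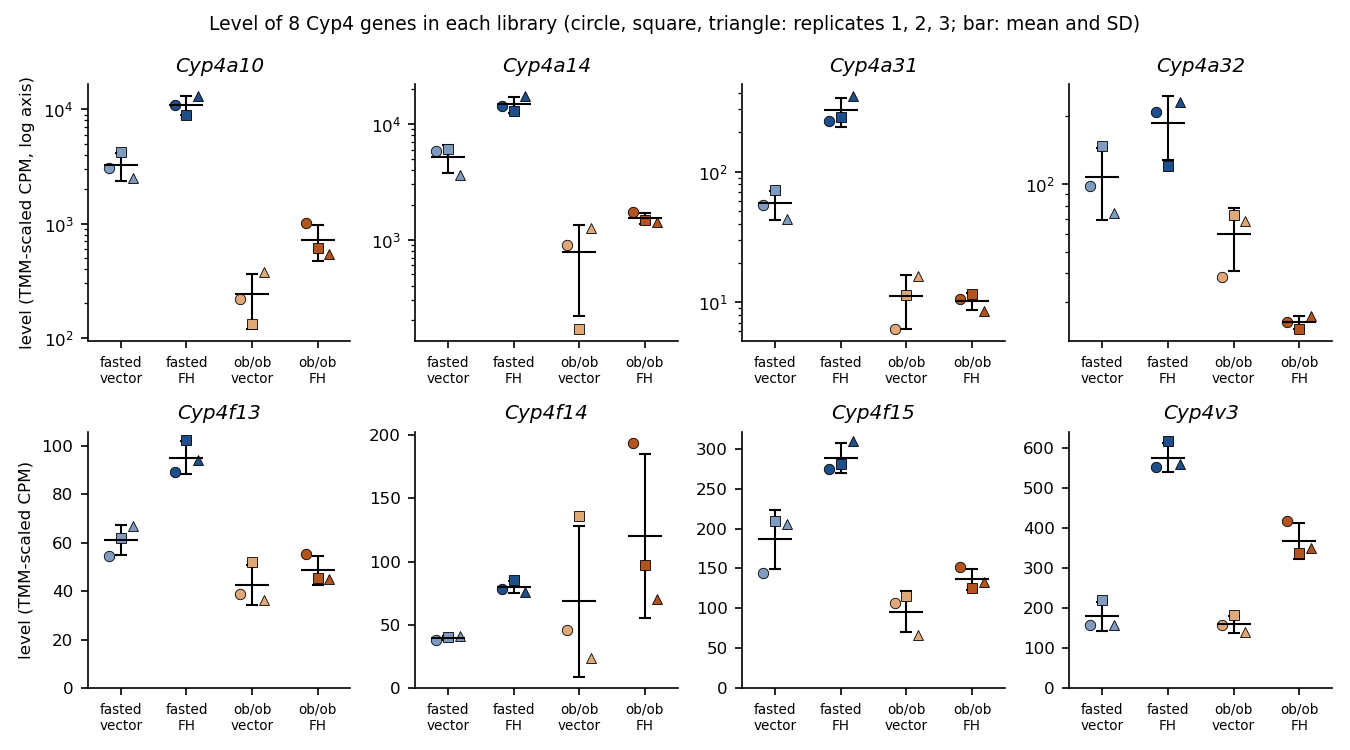
Level of each gene in each library, in TMM-scaled CPM, for the 4 groups of 3 libraries; the Cyp4a panels have a log axis, and bars are the mean and SD. All 4 Cyp4a genes are highest in the fasted FH group, Cyp4a32 has overlapping fasted groups, and Cyp4f14 spreads widely in both ob/ob groups.

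FH and vector were first compared in fasted C57BL/6 mice. All 4 Cyp4a genes, Cyp4f13, Cyp4f15 and Cyp4v3 rose with FH, from 1.55-fold for Cyp4f15 to 5.16-fold for Cyp4a31. Cyp4f14 had a 2.01-fold higher mean that did not pass the test. These 7 of 8 genes stand beside 27.4% of all tested genes called higher and 27.6% called lower (edgeR quasi-likelihood test, Benjamini-Hochberg adjusted p below 0.05 over all genes). The libraries of the 2 groups did not overlap, with FH higher, for 7 of the 8 genes and for 30.4% of all tested genes. The median log2 fold change was 1.26 over the 8 genes and -0.04 over all tested genes. These values are with TMM scaling, and on library totals the groups of Cyp4f13 and Cyp4f15 overlapped.

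Cyp4a10, an inducible fatty acid omega-hydroxylase, was at 3083, 4258 and 2498 CPM with vector and at 10976, 8965 and 13055 CPM with FH in fasted mice. The lowest FH library was above the highest vector library. The log2 fold change was 1.75 (SE 0.36, adjusted p = 0.00101). Cyp4a14, the other strongly inducible member, was at 5851, 6140 and 3594 CPM with vector and 14333, 12855 and 17423 CPM with FH. Its groups did not overlap either, with a log2 fold change of 1.52 (SE 0.49, adjusted p = 0.0178). Without fasted vector replicate 3 or fasted FH replicate 3 it no longer passed, with a highest adjusted p of 0.0747.

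Per kilobase of exon, Cyp4a14 and Cyp4a10 had the highest levels of the 8 genes in this model, with 5717 ± 896 and 5215 ± 970 CPM per kb in the fasted FH group (SD, n = 3). Cyp4v3 followed at 152 ± 9.29, Cyp4f15 at 126 ± 8.1, Cyp4a32 at 121 ± 38.2 and Cyp4a31 at 117 ± 29.2 CPM per kb. Neighbours from Cyp4f15 to Cyp4a31 in this order differed by less than their spread. Cyp4f14 and Cyp4f13 were lowest, at 33 ± 1.98 and 21.4 ± 1.51 CPM per kb. Their order depends on the length used, since per kilobase of the main transcript they were at 36 ± 2.16 and 54.3 ± 3.83 CPM per kb.

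Cyp4a31 was at 55.9, 71.9 and 43.5 CPM with vector and 244.6, 260.3 and 378.6 CPM with FH in fasted mice. These groups were far apart, and the log2 fold change of 2.37 (SE 0.29, adjusted p = 2.17e-05) was the highest of the 8 genes. Cyp4a32 was at 98.1, 147.8 and 74.4 CPM with vector and 207.9, 119.6 and 230.6 CPM with FH. The lowest FH library lay inside the vector range, and the log2 fold change was 0.80 (SE 0.29, adjusted p = 0.029). That call was lost when any of 6 libraries was left out, fasted vector 1 or 3, fasted FH 1 or 3, or ob/ob FH 1 or 3, with adjusted p up to 0.119. Summed as 1 row, the counts of Cyp4a10, Cyp4a31 and Cyp4a32 gave a log2 fold change of 1.66 (SE 0.32, adjusted p = 6.84e-04).

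Cyp4v3 was at 159.5, 220.6 and 158.5 CPM with vector and 552.8, 617.4 and 560.2 CPM with FH in fasted mice. The groups were far apart, and the log2 fold change was 1.68 (SE 0.16, adjusted p = 4.61e-06). Cyp4f15 was at 144.2, 208.9 and 206.1 CPM against 273.9, 281.3 and 309.0 CPM. The groups did not overlap, the log2 fold change was 0.63 (SE 0.20, adjusted p = 0.0150), and without fasted vector replicate 1 it was 0.42 with an adjusted p of 0.0944. Cyp4f13 was at 54.7, 61.9 and 66.9 CPM against 89.0, 102.3 and 93.9 CPM, a log2 fold change of 0.64 (SE 0.15, adjusted p = 0.00245).

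Cyp4f14, a leukotriene omega-hydroxylase, was at 37.9, 40.2 and 41.1 CPM with vector and 78.6, 85.1 and 75.8 CPM with FH in fasted mice. Both groups were tight and did not overlap. The log2 fold change of 1.01 (SE 0.48) had an adjusted p of 0.0902, in a fit whose shared estimate of spread includes the ob/ob libraries, where this gene ranged from 23.9 to 193.2 CPM. Without ob/ob vector replicate 2 the log2 fold change was 1.02 and the adjusted p 0.00634. With every library kept but scaled by library totals, it was 0.33 (adjusted p = 0.554).

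Scaling by library totals in place of TMM moved the median of all genes to -0.71 on the log2 scale in fasted mice and to -0.63 in ob/ob mice. With that scaling 1087 genes were called higher and 8496 lower in fasted mice, against 4174 and 4208 with TMM. In ob/ob mice the counts were 1039 and 8119, against 3932 and 4245. Cyp4a10, Cyp4a31 and Cyp4v3 still rose in fasted mice on library totals, by 1.08, 1.70 and 1.02. Cyp4a14 had 0.86 (adjusted p = 0.127) and Cyp4a32 had 0.14, while Cyp4f13 at -0.04 and Cyp4f15 at -0.05 had the other sign. As a share of all counts, Cyp4a10, Cyp4a14, Cyp4a31 and Cyp4a32 together took 0.756% to 1.17% with vector and 1.59% to 2.17% with FH in fasted mice.

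**Figure D2:**
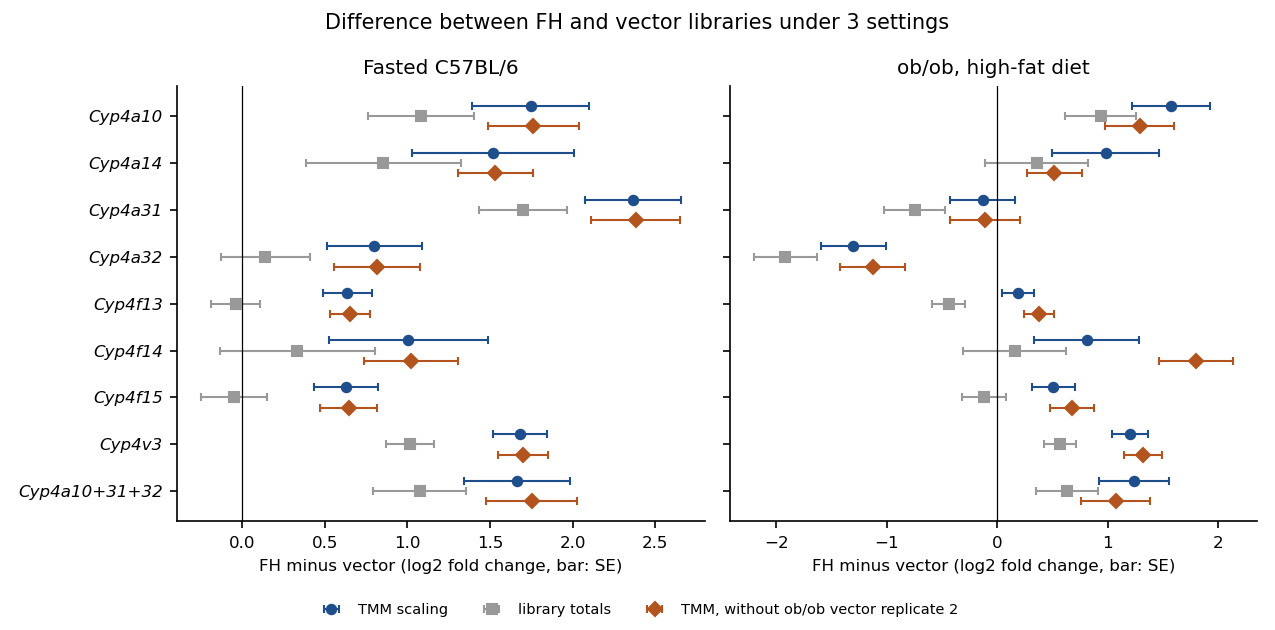
Log2 fold change of FH over vector with its SE, in fasted C57BL/6 and in ob/ob libraries (3 per group), with TMM scaling, with library totals, and with TMM scaling but without ob/ob vector replicate 2. Library totals shift all points to the left, and Cyp4a31 and Cyp4a32 lie right of 0 in fasted and left of 0 in ob/ob libraries with all 3 settings.

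In ob/ob mice on the HFD, Cyp4a10, Cyp4f15 and Cyp4v3 rose with FH and Cyp4a32 fell. Cyp4a14, Cyp4a31, Cyp4f13 and Cyp4f14 did not pass the test. These 3 higher and 1 lower calls stand beside 25.8% of all tested genes called higher and 27.9% called lower in this comparison. The groups did not overlap with FH higher for 4 of the 8 genes, beside 30.6% of all tested genes, and with FH lower for 1, beside 31.2%. The median log2 fold change was 0.66 over the 8 genes and -0.01 over all tested genes. All of this is with TMM scaling, and on library totals the groups of Cyp4a10, Cyp4a14 and Cyp4f15 overlapped.

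Cyp4a10 was at 219.8, 131.1 and 374.5 CPM in the ob/ob vector libraries and 1003, 612.6 and 540.2 CPM in the ob/ob FH libraries. The groups did not overlap, and the log2 fold change was 1.57 (SE 0.35, adjusted p = 0.00216). Cyp4a14 was at 902.8, 167.1 and 1260 CPM with vector and 1717, 1469 and 1411 CPM with FH. All FH libraries were above all vector libraries, and the vector libraries were spread widely. The log2 fold change of 0.98 (SE 0.48) had an adjusted p of 0.102. It was 0.52 (adjusted p = 0.0961) without ob/ob vector replicate 2, the lowest library, and 1.54 (adjusted p = 0.0206) without ob/ob vector replicate 3, the highest vector library. On library totals it was 0.36 (adjusted p = 0.532).

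Cyp4a32 was at 38.4, 72.4 and 68.5 CPM with vector and 24.4, 22.6 and 25.8 CPM with FH in ob/ob mice. All FH libraries lay below all vector libraries, with a log2 fold change of -1.30 (SE 0.29, adjusted p = 0.00213). Cyp4a31 was at 6.21, 11.4 and 16.02 CPM against 10.6, 11.7 and 8.5 CPM. Those groups overlapped, and the log2 fold change was -0.13 (SE 0.29, adjusted p = 0.730). On library totals Cyp4a31 was called lower as well, at -0.75 (adjusted p = 0.0314).

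Cyp4v3 was at 158.2, 182.2 and 140.6 CPM with vector and 418.7, 337.0 and 349.5 CPM with FH in ob/ob mice. The groups were clearly apart, with a log2 fold change of 1.20 (SE 0.16, adjusted p = 4.73e-05), and 0.57 (adjusted p = 0.00406) on library totals. Cyp4f15 was at 106.7, 115.2 and 66.3 CPM against 151.4, 125.4 and 132.9 CPM. The groups did not overlap, but the log2 fold change of 0.51 (SE 0.20, adjusted p = 0.0420) sat at the threshold. It missed it when any of 6 libraries was left out, fasted FH 1 or 2, ob/ob vector 3, or any ob/ob FH library, and was -0.12 on library totals. Cyp4f13 was at 39.1, 52.2 and 36.5 CPM against 55.3, 45.3 and 45.2 CPM, groups that overlapped, with a log2 fold change of 0.19 (adjusted p = 0.294).

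Cyp4f14 was at 45.9, 135.9 and 23.9 CPM with vector and 193.2, 97.2 and 70.2 CPM with FH in ob/ob mice. Vector replicate 2 was above 2 of the 3 FH libraries. The log2 fold change was 0.81 (SE 0.47, adjusted p = 0.164) with that library and 1.80 (SE 0.33, adjusted p = 4.11e-04) without it. On library totals, with every library kept, it was 0.16 (adjusted p = 0.786). Cyp4f13 also passed without vector replicate 2, at 0.38 (adjusted p = 0.0314), which made 5 genes higher in place of 3. The same library differed from its group in genes outside the family. It held Hsd3b5, a male-biased steroid dehydrogenase of liver, at 334 CPM against 0 and 0.0580 CPM in the other two. Dbp, a clock-driven transcription factor, was at 0.420 CPM there against 35.7 and 36.7 CPM.

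The make-up of the 3 close copies differed between groups. Cyp4a10 took 95.1% to 95.5% of their summed counts in fasted vector, 95.5% to 96% in fasted FH and 94% to 96.6% in ob/ob FH libraries. In the ob/ob vector libraries it took 83.1%, 61.0% and 81.6%, and Cyp4a32 took 14.5%, 33.7% and 14.9%. Replicate 2 was again the farthest from the rest, but all 3 ob/ob vector libraries lay outside the range of the other 9. As 1 row, the 3 copies rose in ob/ob mice by 1.24 (SE 0.32, adjusted p = 0.00476) with TMM scaling and by 0.63 (adjusted p = 0.0649, not passing) on library totals. The 4 Cyp4a genes together took 0.0512% to 0.226% of all counts in the ob/ob vector libraries and 0.18% to 0.226% in the ob/ob FH libraries, ranges that overlapped.

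**Figure D3:**
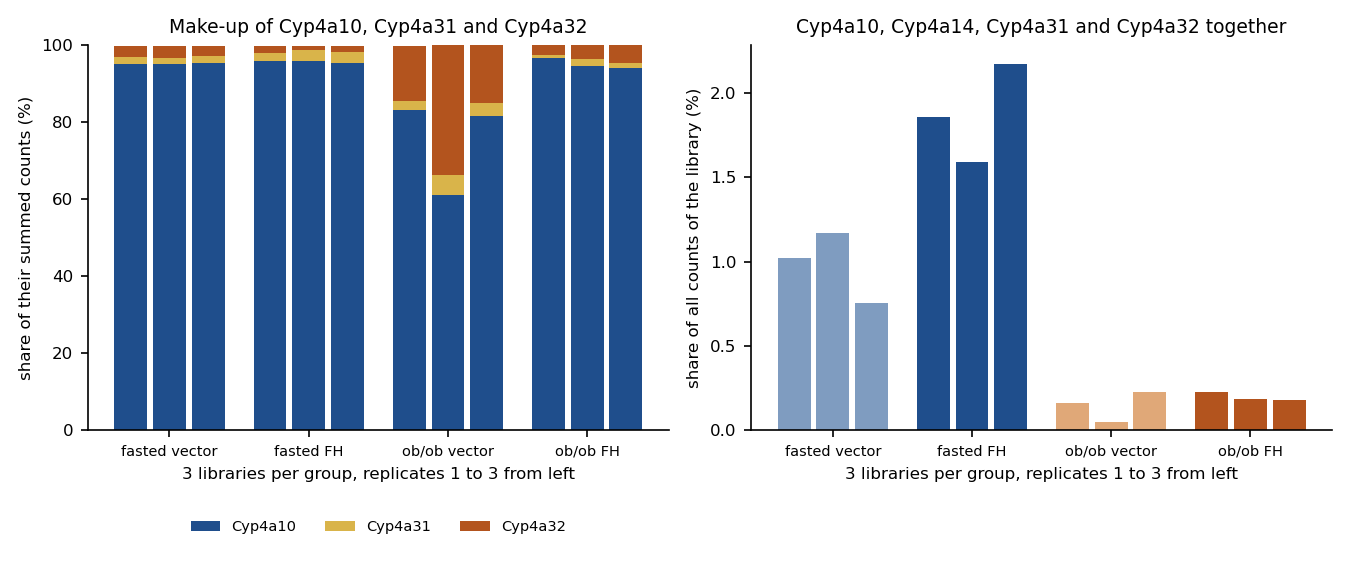
Left, share of Cyp4a10, Cyp4a31 and Cyp4a32 in their summed counts in each of the 12 libraries (%); right, share of the 4 Cyp4a genes in all counts of each library (%). Cyp4a10 makes up 94% or more except in the 3 ob/ob vector libraries, and the right bars reach 2.17% in fasted FH but 0.226% in ob/ob libraries.

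The FH effects in the 2 models were then set against each other by an interaction term. Cyp4a31 and Cyp4a32 had a lower log2 fold change in ob/ob than in fasted mice, by -2.50 (SE 0.41, adjusted p = 0.0039) and -2.10 (SE 0.41, adjusted p = 0.00859). In this test 4.77% of all genes were called higher and 3.66% lower. Both calls were kept whichever library was left out and on library totals. The other 6 genes had differences from -0.54 for Cyp4a14 to -0.12 for Cyp4f15, and none passed. Without ob/ob vector replicate 2 that of Cyp4a14 was -1.02 (adjusted p = 0.0601) and that of Cyp4f14 was 0.78 in place of -0.20 (adjusted p = 0.270). For the 3 copies summed, the difference was -0.42 (SE 0.44, adjusted p = 0.619).

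The models themselves differed strongly in the Cyp4a genes. With vector, Cyp4a10 was 13.6-fold, Cyp4a14 6.69-fold and Cyp4a31 5.08-fold lower in ob/ob mice on the HFD than in fasted C57BL/6 mice. Cyp4f15 and Cyp4f13 were 1.94-fold and 1.44-fold lower. In all, 5 of 8 genes fell and none rose, beside 8.18% and 9.36% of all tested genes, with a median log2 fold change of -0.90 against -0.00. The groups did not overlap, with ob/ob lower, for 6 of the 8 genes, beside 14.8% of all tested genes. The log2 values were -3.76 (SE 0.39, adjusted p = 4.72e-05) for Cyp4a10 and -2.74 (SE 0.51, adjusted p = 0.00274) for Cyp4a14. Cyp4a32 at -0.84 had an adjusted p of 0.0599, and it passed without fasted vector 3, fasted FH 2 or ob/ob vector 2. Cyp4f13 at -0.52 (adjusted p = 0.0271) missed the threshold without fasted vector 2 or 3 or ob/ob vector 1 or 3. Cyp4v3 at -0.16 and Cyp4f14 at 0.79 did not pass, and Cyp4f14 was at -0.19 without ob/ob vector replicate 2. On library totals the vector groups of Cyp4a32 and Cyp4f13 overlapped.

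With FH, 7 of 8 genes were lower in ob/ob than in fasted mice and none was higher, beside 21.6% and 18.6% of all tested genes. For the same comparison 7 of 8 genes had groups that did not overlap, with ob/ob lower, beside 31.3% of all tested genes. The median log2 fold change was -2.01 over the 8 genes and -0.09 over all. Cyp4a31 was 28.7-fold lower (log2 -4.84, SE 0.33, adjusted p = 7.38e-07), Cyp4a10 15.3-fold and Cyp4a14 9.7-fold. Cyp4a32 was 7.67-fold lower, and its lowest fasted FH library was above every ob/ob FH library. Cyp4v3 fell by 0.65 (SE 0.16, adjusted p = 0.00623) on the log2 scale. Cyp4f14 at 0.59 (adjusted p = 0.341) did not pass, and its groups overlapped.

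With TMM scaling, Cyp4a10 and Cyp4a14 had the same order across all 4 groups. From high to low it was fasted FH, fasted vector, ob/ob FH and ob/ob vector, and no neighbours in it overlapped. On library totals the ob/ob groups of both genes overlapped. The highest ob/ob vector and lowest ob/ob FH libraries were then at 493.5 and 489.5 CPM for Cyp4a10. For Cyp4a14 they were at 1660 and 1279 CPM. Again with TMM scaling, Cyp4a31 kept the first steps of that order, but its ob/ob groups overlapped. Cyp4a32 had ob/ob FH as the lowest group, below ob/ob vector with no overlap. Cyp4v3 had another order, fasted FH, ob/ob FH, fasted vector and ob/ob vector, in which only the last pair overlapped. Each pair of neighbours in the order for Cyp4f14 overlapped.

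**Figure D4:**
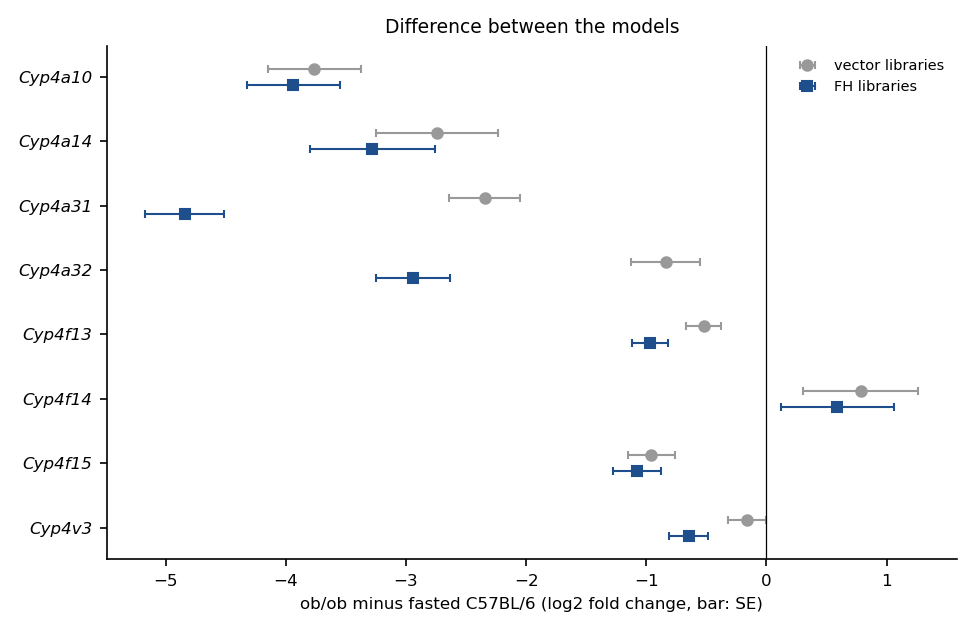
Log2 fold change of ob/ob over fasted C57BL/6 with its SE, separately for the vector and the FH libraries (3 per group). All 8 genes are farther left in FH than in vector libraries, Cyp4a31 and Cyp4a32 by the most, and Cyp4f14 is the gene right of 0 in both.

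The genes whose pattern over the 12 libraries was most like that of Cyp4a14 were Mt1, a metallothionein, Cyp4a10, Por, Krt23, a keratin, and Fkbp5, a glucocorticoid-induced chaperone. Likeness was the root-mean-square difference of mean-centred log2 CPM over 7563 genes that averaged 10 CPM or more. It was 0.46, 0.55, 0.69, 0.72 and 0.74 for these 5, and 1.84 for the median gene. Nearest to Cyp4f14 were Hsd3b3 at 0.33, Nat8f1 at 0.36, Ethe1 at 0.40, Abcb11, the bile salt export pump, at 0.45 and Ido2 at 0.45, with 0.84 for the median gene.

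The lists of other genes below are read against the same background, 27.4% of all tested genes higher and 27.6% lower with FH in fasted mice and 25.8% and 27.9% in ob/ob mice. Microsomal P450 enzymes take electrons from P450 reductase, encoded by Por, and some also from cytochrome b5. Of 4 genes for P450 reductase, forms of cytochrome b5 and its reductase, 3 rose with FH in fasted mice. In ob/ob mice 2 rose, and none fell in either model. Por went from 385 ± 99.4 to 1394 ± 101 CPM in fasted mice (log2 1.86, SE 0.22, adjusted p = 1.65e-05) and from 82.8 ± 22.7 to 251 ± 10.6 CPM in ob/ob mice (log2 1.60, SE 0.22, adjusted p = 4.82e-05). Between the models it was lower in ob/ob mice, by -2.22 with vector and -2.47 with FH. Cyb5r3, the reductase of cytochrome b5, rose by 1.05 and 0.80. Cyb5b rose by 0.92 in fasted mice and had 0.17 in ob/ob mice, where it did not pass. Cyb5a, the microsomal b5, had 0.27 and 0.15, and neither passed. On library totals 2 were called higher and 1 lower in fasted mice, and 1 and 2 in ob/ob mice.

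Of 26 tested genes that take omega-hydroxy acids to dicarboxylic acids or oxidise them in peroxisomes, 19 rose and none fell with FH in fasted mice, with a median log2 fold change of 0.91. The counts in ob/ob mice were 10 and 4, with a median of 0.40. Adh1, an alcohol dehydrogenase that can act on omega-hydroxy acids, rose by 2.22 (SE 0.21, adjusted p = 3.82e-06) in fasted and by 1.93 (SE 0.21, adjusted p = 8.49e-06) in ob/ob mice. In fasted mice Hsd17b4, a multifunctional enzyme of peroxisomal beta-oxidation, rose by 1.52 and Abcd3, a peroxisomal importer, by 1.27. In ob/ob mice Hsd17b4 rose by 1.05 and the aldehyde dehydrogenase gene Aldh9a1 by 0.99. On library totals 8 rose and 2 fell in fasted mice, and 3 rose and 8 fell in ob/ob mice.

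Ppara was at 127 ± 2.54 CPM with vector and 214 ± 63.9 CPM with FH in fasted mice (log2 0.75, SE 0.27, adjusted p = 0.0281), and this call was lost without any 1 of the 3 fasted vector libraries or fasted FH 1 or 2. In ob/ob mice it had 0.08 (adjusted p = 0.821). Rxra rose by 1.64 (SE 0.16, adjusted p = 4.51e-06) and by 1.04 (SE 0.16, adjusted p = 1.12e-04). Of 49 tested liver targets of PPARA outside the family, 32 rose and 3 fell in fasted mice (median 1.03), and 19 rose and 2 fell in ob/ob mice (median 0.40, and 0.16 without ob/ob vector replicate 2). Cpt2, which completes carnitine-dependent entry of fatty acids into mitochondria, rose by 1.53 and 1.09, and Hadha, of mitochondrial beta-oxidation, by 1.87 and 1.16. On library totals 15 rose and 7 fell in fasted mice, and 3 rose and 9 fell in ob/ob mice. Of 18 genes for the receptor, its partners and coregulators, other nuclear receptors and Fabp1, 8 rose and 2 fell in fasted mice. Among ob/ob mice 4 rose and 4 fell, shares below the background. The genes that fell there included Sirt1 at -1.30 (adjusted p = 2.33e-04) and Med1 at -0.75 (adjusted p = 0.00201). On library totals 1 rose and 5 fell in fasted mice, and 1 rose and 11 fell in ob/ob mice.

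Of 16 other Cyp4 genes in the table, 8 passed the filter. In each FH comparison 1 of them rose and 3 fell. Cyp4a12a, the male-biased arachidonic acid omega-hydroxylase, was at 90.6, 115.3 and 81.5 CPM in fasted vector and 270.3, 403.7 and 404.2 CPM in fasted FH libraries. In ob/ob mice it was at 78.3, 118.5 and 36.6 CPM with vector and 8.03, 20.2 and 11.4 CPM with FH. It rose by 1.91 (SE 0.38, adjusted p = 8.11e-04) in fasted and fell by 2.56 (SE 0.39, adjusted p = 1.27e-04) in ob/ob mice. Its near copy Cyp4a12b, 98.5% identical in coding sequence, was at 0.464, 30.0 and 0.680 CPM in ob/ob vector and 0.829, 0.312 and 0.329 CPM in ob/ob FH libraries. The log2 fold change of -4.40 (adjusted p = 0.00941) became -0.23 (adjusted p = 0.778) without ob/ob vector replicate 2. Xist differed between the same ob/ob groups, as given above. Cyp4b1, which hydroxylates shorter fatty acids, fell by 1.33 in fasted mice. Cyp4f17 fell by 0.87 and 0.60, and Cyp4f16 rose by 1.44 in ob/ob mice.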

How the data were processed

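RNA was extracted from liver with TRIzol and made into libraries with Illumina Stranded mRNA Prep from 1 µg of total RNA, per the labels' protocols. The authors deposited 1 table of raw read counts per gene for 12 libraries. STAR 2.7.11a and build GRCm39 are named in the submitters' processing notes. The counting tool, annotation, use of strand and handling of reads with several matches are not stated there. Column names were matched to the sample titles.

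Counts were tested with edgeR 4.0.16 (limma 3.58.1, R 4.3.3): filterByExpr, TMM, glmQLFit with 4 groups over all 12 libraries, and glmQLFTest for 5 comparisons, with Benjamini-Hochberg adjustment over the 15228 genes tested and calls at 0.05. The pipeline was tested on simulated data in which few genes were changed, as many up as down. Those data did not test the scaling under changes as wide as in these libraries. Alternatives were DESeq2 1.42.0, RLE factors, library totals, no filter, only the groups compared, a replicate block and each library left out. Close Cyp4a copies were also summed. Coding sequences and exon lengths came from GENCODE M21; levels per transcript length were added after seeing the data. All 8 members, Fh1, Ppara, Rxra, Por, Cyb5a and up to 4 called genes per list with the smallest adjusted p were named, plus the nearest genes by likeness. Not every gene so picked is reported here. A few others (Xist, Ddx3y, Dbp, Hsd3b5, and Cyb5b in ob/ob mice) were named after their values were seen. The members and lists were chosen with earlier results of these data known. The lowest member, Cyp4a31, had 107 to 306 counts per ob/ob library.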

Additional observations from a re-analysis of the deposited data

Results flagged for a closer look

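Each result here had an FH effect that differed between ob/ob and fasted mice by the interaction test at an adjusted p under 0.05 (edgeR quasi-likelihood test). Among the 8 genes these were Cyp4a31, at -2.50, and Cyp4a32, at -2.10 (ob/ob minus fasted, log2). The sum of both with Cyp4a10 did not pass, at -0.42, and Cyp4a10 holds most of its counts.

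Among the other named genes, Cyp4a12a was at -4.46, with values moving up in fasted and down in ob/ob mice, and Cyp4a12b was at -6.09. The value for Cyp4a12b was -1.93 without ob/ob vector replicate 2, and its call was lost in 8 of the 12 fits that left out 1 library. Cyp4b1 was at 1.63, Abcd3 at -0.82 (adjusted p = 0.0445) and Cyb5b at -0.74 (adjusted p = 0.0468). Fh1, the mouse FH gene, was at 1.13. Of the 12 fits that left out 1 library, 11 lost the call of Abcd3, 9 that of Cyb5b and 5 that of Fh1, with adjusted p up to 0.153, 0.159 and 0.0723, and none lost that of Cyp4b1. The ob/ob FH libraries, which differ from the rest in Xist and Ddx3y, enter each of these values.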

How the results depend on the processing

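Over all settings, 163 of 180 values of the 8 genes and their sums kept direction and call in the fasted FH comparison, 155 of 180 in the ob/ob one. Most settings left out 1 library, often from a group not compared, and the sums share counts with the genes. These shares therefore do not measure how far the calls depend on scaling. On library totals, 3 of the 8 genes were called higher with FH in fasted mice, and in ob/ob mice 2 were called higher (Cyp4a10 and Cyp4v3) and 3 lower. Signs turned on library totals for Cyp4f13 (-0.040 in fasted, -0.44 in ob/ob mice), Cyp4f15 (-0.049, -0.12), Cyb5a (-0.41, -0.48), and, in ob/ob mice, Cyb5b (-0.46) and Ppara (-0.54). The 3 summed copies had 0.63 in ob/ob mice, and Cyp4v3 had 0.050 between the models with vector. With no filter on low counts 5 genes were higher with FH in ob/ob mice, and 1, Cyp4f14, was higher in ob/ob than in fasted mice with vector and 1, again Cyp4f14, with FH. The cause was not tested.

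With each library left out in turn, 2 to 5 genes were higher with FH in ob/ob mice. In the ob/ob comparison the values of Cyp4a31 ran from -0.40 to 0.23 and those of Ppara from -0.17 to 0.31. The difference between the FH effects ran from -0.47 to 0.29 for Cyp4a10, -0.67 to 0.78 for Cyp4f14 and -0.33 to 0.077 for Cyp4f15. Between the models with vector, Cyp4f14 ran from -0.19 to 1.19 and Cyp4v3 from -0.26 to 0.013.

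Deviations of same-numbered libraries of the compared groups from their group means had correlations from -0.15 to 0.11. The labels do not say whether equal numbers pair libraries, and these low correlations cannot exclude it. With a replicate block, Cyp4f15 in ob/ob mice was 0.52 (adjusted p = 0.0536) and the calls of Abcd3 (-0.83) and Cyb5b (-0.75) between the FH effects were lost. No other call of the 8 genes changed under the block.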
